A study of Brassica oleracea with 8 samples.

Results

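Cabbage and TO1000, 2 morphotypes of Brassica oleracea, were compared at the shoot tip without the kale samples that completed the series. The comparison holds 5 of the 8 RNA-seq libraries, the 2 titled as cabbage and the 3 titled as TO1000, and these were fitted on their own. The cabbage is a single accession, labelled var. sabadua in the deposited records and var. capitata in the methods of the study. TO1000 is a rapid cycling doubled haploid line of var. alboglabra. Both morphotypes were grown from seed in 1 chamber under short days, with no treatment. The upper stem with its immature leaves and its apical and lateral meristems was frozen 24 days after planting, when cabbage had fewer fully expanded leaves than TO1000 by the study's methods. Each library pools 8 plants, so the replicates measure the spread between pools of 1 accession and not between cabbages. A further cabbage replicate is not analysed here.

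Cabbage is a biennial leafy crop that folds its leaves into a head around a shoot tip that stays vegetative for a long time, while rapid cycling lines were bred to flower early. In Arabidopsis, the relative in which most of these genes were studied, the repressor FLC holds back the floral integrator SOC1, and the meristem turns to flowering as FLC falls and SOC1 rises. Crucifers also keep glucosinolates, sulphur-rich defence compounds, apart from myrosinases, the enzymes that break them into pungent products when a leaf is chewed. Gene names below are those that the study pairs with an identifier, and the first digit of an identifier such as Bo3g024250 gives the chromosome of the TO1000 assembly.

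The cabbage libraries held 3016197 (replicate 1) and 5726708 (replicate 2) counts on genes, and the TO1000 libraries between 5310933 and 6863962. Of 60586 annotated features 9077 had 0 counts in all 5 libraries. At an equal depth of 3016197 counts, cabbage replicates 1 and 2 held 32840 and 31288 features with at least 1 count, and TO1000 held 35560 to 39986, so the groups did not overlap. Reads were mapped to the TO1000 genome itself, and a cabbage transcript that is absent cannot be told apart from one whose reads did not map. Levels are given as CPM, counts scaled by the TMM-adjusted library size. A count of 0 in all libraries of a group allows up to 0.359 CPM in cabbage and 0.157 CPM in TO1000, taking 3 counts over the group as the limit. These limits and the intervals below cover counting error only, since PCR copies are not separate molecules.

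Genes that mark the shoot apex and young organs were present in both morphotypes. Summed over 7 listed genes they reached 108 and 109 CPM in cabbage and 107 to 117 CPM in TO1000, and 5 of the 7, ANT, YAB1, GRF3, GRF4 and AP2, were counted in every library. These 5 differed in direction, with log2 fold changes (cabbage minus TO1000) of -0.57 (ANT), -0.70 (AP2), -0.59 (GRF4), 0.29 (YAB1) and 0.32 (GRF3). None of the 5 was called, beside 27.8% of all tested genes, and nothing is read from the pair. The REVOLUTA copies Bo9g130730 and Bo7g021280 were not counted in every library and had at most 2 counts in any. AP1, which gives floral meristems their identity, had at most 1 count in any library. The sum of 5 markers of the epidermis and its hairs was 28.6 and 31.9 CPM in cabbage and 29.8 to 38.2 CPM in TO1000. Of the 5, TRY and the MYB106 copy Bo5g156410 were counted in every library, while GL1 was nearly uncounted, at 1 count or fewer per library. The sum of 3 green leaf genes did not overlap, at 53.0 and 51.9 CPM in cabbage against 28.9, 34.5 and 30.9 CPM in TO1000. In a mixed tissue such as this, fewer cells of a type and less RNA per cell cannot be told apart.

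The libraries grouped by morphotype. Euclidean distances on log2 CPM over the tested genes lay between 63.5 and 96.4 for replicates and between 216.6 and 229.6 for libraries of different morphotypes. The ratio of the mean distances was 2.65 (exact permutation test over the 10 divisions into 2 and 3 libraries, one-sided, p = 0.1, which no division could go below). Between the cabbage replicates 9.21% of tested genes differed beyond 2-fold, and between TO1000 replicates 1.80% to 6.70% did. A cabbage and a TO1000 library differed beyond 2-fold in 29.0% to 33.1% of genes.

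A gene was called differentially expressed where its false discovery rate (FDR) was under 0.05 and its level differed more than 2-fold, which is 1 on the log2 scale. Of 26015 genes tested 7237 were called (27.8%). In cabbage 2857 genes were higher expressed (11.0%) and 4380 were lower expressed (16.8%), so that 60.5% of the called genes were lower in cabbage. A further 3990 genes (15.3%) passed the FDR with a change of less than 2-fold. Called genes changed by a median of 1.88 on the log2 scale in absolute size, while over all tested genes the median log2 fold change was -0.05. The called genes carried 17.8% to 20.2% of the counts of each library. The genes higher in cabbage took 13.8% and 16.0% of the counts in cabbage and 5.27% to 5.81% in TO1000. Those lower in cabbage took 4.00% and 3.00% in cabbage and 13.2% to 14.4% in TO1000, so each set took a similar share of the counts in the morphotype where it was higher, although more genes were lower.

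**Figure D1:**
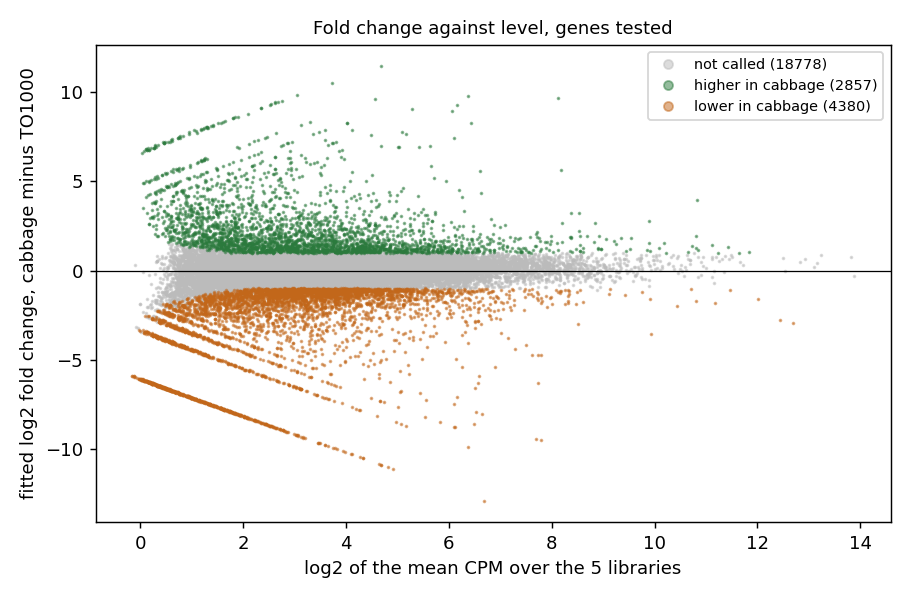
Fitted log2 fold change (cabbage minus TO1000, y axis) against log2 of the mean CPM over the 5 libraries (x axis), 1 point per tested gene. The 4380 genes lower in cabbage and the 2857 higher lie beyond 1 on either side, and the straight lines of points at low levels are genes with 0 or very few counts in the lower morphotype, whose fitted fold depends on the prior count.

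The excess of genes lower in cabbage was smallest among the most abundant genes. Tested genes were split by mean CPM into 5 classes of 5203 genes. In the lowest class 45.0% of genes were called, and 61.2% of those were lower in cabbage. In the middle class 25.0% were called, with 65.1% lower. In the highest class, from 33.8 CPM upwards, 15.8% were called and 50.4% of them were lower, so the most abundant genes moved in both directions about equally.

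The excess was also widest among the largest changes. Between 2-fold and 4-fold 2206 genes were lower and 1663 higher in cabbage. Beyond 64-fold 660 were lower and 147 higher, and 81.8% of these were lower. Most of the lower genes, 578 of the 660, had no count at all in cabbage, and 70 of the 147 higher genes had none in TO1000. Without the genes at 0 counts 82 were lower and 77 higher beyond 64-fold (51.6% lower). Silence in the 2 cabbage libraries is a less demanding criterion than silence in the 3 TO1000 libraries, and the cabbage libraries hold 8742905 counts in all against 18524211.

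**Figure D2:**
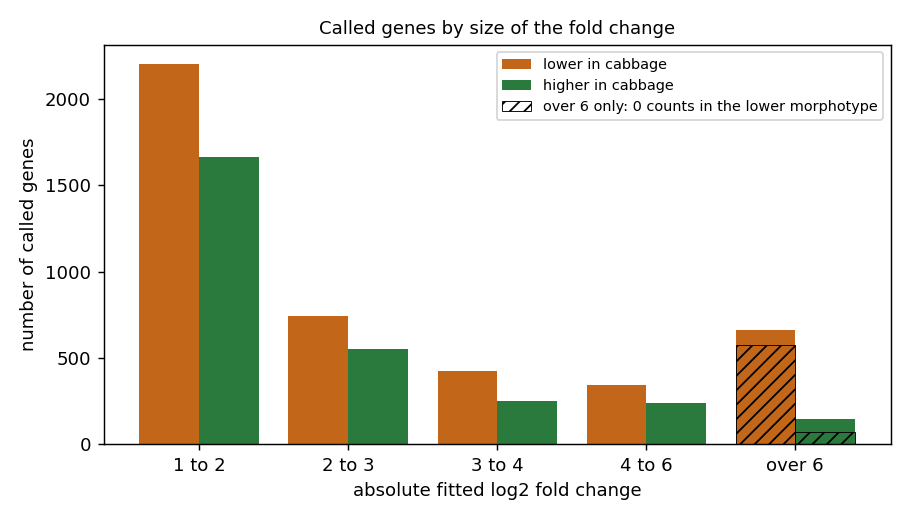
Number of called genes (y axis) by absolute fitted log2 fold change (x axis), lower in cabbage in orange and higher in green. The bars beyond a log2 change of 6 stand at 660 and 147, and their hatched part, 578 and 70, is the genes with 0 counts in the lower morphotype.

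Genes present in one morphotype and uncounted in the other were therefore counted at an equal depth, with each library thinned to 3016197 counts. At a minimum of 10 counts in every library of one morphotype, and 0 in the other, 227 genes were found in TO1000 only and 66 in cabbage only. They made up 1.15% of the 19654 genes counted that well in TO1000 and 0.348% of the 18975 in cabbage. With a TO1000 library left out, so that both groups had 2 libraries, 250 to 288 genes were found in TO1000 only and 91 to 107 in cabbage only. Of the 227 genes 25 lay on unplaced scaffolds, 4 were non-coding and 198 lay on chromosomes, where 7 pairs were neighbours. The 66 cabbage genes held 4 on scaffolds and 62 on chromosomes, with no neighbouring pair. The most counted gene of each kind has no name in the sources used here. Bo2g165560 had 0 counts in both cabbage libraries and 914, 1294 and 1090 counts in TO1000 (156, 188 and 172 CPM), at least 482-fold lower in cabbage. Bo9g160110 had 205 and 288 counts in cabbage (78.2 and 50.2 CPM) and 0 in TO1000, at least 375-fold higher in cabbage. Both bounds set the silent group at 3 counts over the group.

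Among the most abundant transcripts, Bo4g173590 was the called gene of highest level that was lower in cabbage. It stood at 2164 and 441 CPM in cabbage against 5399, 15679 and 9230 CPM in TO1000. The groups did not overlap, but the libraries within each differed severalfold. The fitted log2 fold change was -2.96 (standard error 0.60, edgeR quasi-likelihood test, Benjamini-Hochberg adjusted p = 0.00176). Without cabbage replicate 1 it was -4.50 and without cabbage replicate 2 -2.21. Bo3g134510 was its counterpart on the higher side, with 6094 and 4422 CPM in cabbage and 2343, 2597 and 2764 CPM in TO1000. Its log2 change of 1.03 (standard error 0.24, edgeR quasi-likelihood test, Benjamini-Hochberg adjusted p = 0.00393) lay just past the fold threshold. The call of Bo3g134510 was lost without cabbage replicate 1 (0.80) and without TO1000 replicate 1 (0.97) or replicate 3 (1.09, adjusted p = 0.0607).

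The called genes were spread over all 9 chromosomes. The share called ran from 24.6% of tested genes on chromosome 6 to 31.1% on chromosome 2, where 19.7% were lower in cabbage. Over all chromosomes 16.2% of 25089 tested genes were lower and 11.0% higher. Among features outside the chromosomes the share lower in cabbage was larger. On unplaced scaffolds 275 of 852 tested genes (32.3%) were lower in cabbage and 105 (12.3%) higher. Scaffold genes are counted less, but the difference was present within each of the 5 abundance classes, from 42.5% against 26.4% lower in the lowest class to 18.3% against 7.66% in the highest. Of 1361 annotated non-coding features 74 were tested, and 45 of them (60.8%) were lower and 4 (5.41%) higher in cabbage. The non-coding share of all counts was 0.0754% and 0.0441% in the cabbage libraries and 0.110% to 0.168% in TO1000. Without cabbage replicate 2 the lower shares were 26.4% of non-coding, 17.1% of scaffold and 9.77% of chromosome features.

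**Figure D3:**
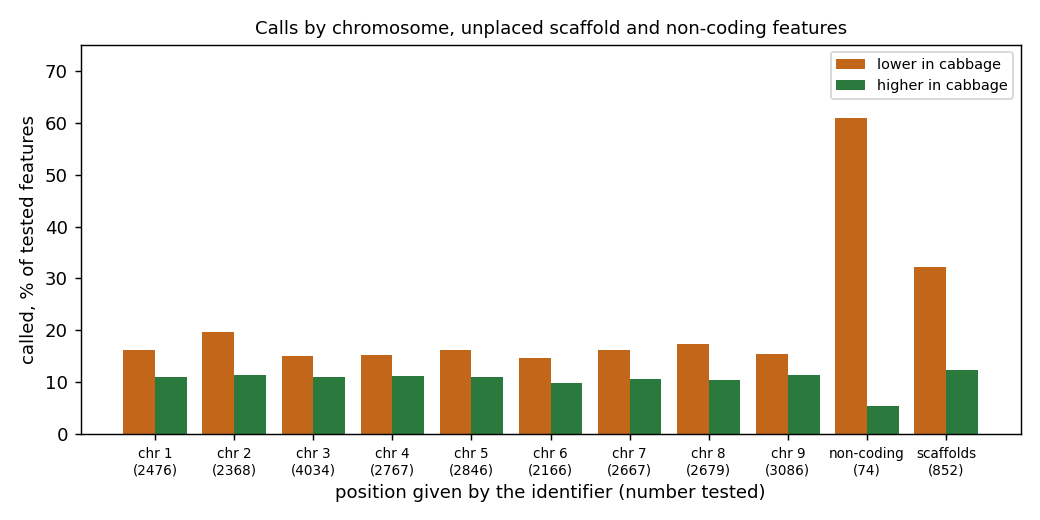
Share of tested features called (y axis, percent) lower (orange) or higher (green) in cabbage, by the chromosome that the identifier gives, for non-coding features and for genes on unplaced scaffolds, with the number tested in brackets. The 9 chromosomes lie between 14.6% and 19.7% lower, below scaffold genes at 32.3% and non-coding features at 60.8%.

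Along the chromosomes genes called in the same direction were neighbours, in the order of identifiers, somewhat more often than other genes. The gene after one lower in cabbage was itself lower in 20.0% of cases, against 15.4% after any other gene. For genes higher in cabbage the shares were 15.1% and 10.4%, a gap of 4.67 percentage points that fell to 2.98 without cabbage replicate 1. Runs of 3 or more tested genes numbered 135 for lower and 56 for higher. Runs of 5 or more numbered 13 for lower and 1 for higher. The longest held 7 genes lower in cabbage and occurred 3 times, on chromosome 7 and at 2 places on chromosome 2. The 7 genes of the run on chromosome 7 had 154 counts over the cabbage libraries and 7010 over TO1000. No order of this kind was tested, and neighbouring copies of a gene can share reads.

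The study pairs 83 genes with names for branching, leaf shape, epidermis, flowering, defence and nutrition. It chose them on these libraries, most for changes in kale. It lists 16 for changes among all morphotypes, which includes cabbage against TO1000, and these hold 12 of the 16 genes called below. Its text also places the called FLC copy Bo3g024250 and SOC1 copy Bo4g024850 among genes shared by all morphotypes or changed in all comparisons. So the calls are a description and no independent evidence, and their number follows from that choice. In these 5 libraries 59 of the 83 had enough counts to be tested, and 16 were called, 8 higher and 8 lower in cabbage. That is 27.1% of those tested, beside 27.8% of all tested genes, and nothing is read from the pair. Their median log2 fold change was -0.02, beside -0.05 for all tested genes. A further 7 passed the FDR within 2-fold. The called genes were FLC, LHP1, PID, IGMT1, IGMT4, a TGG1 copy and the ferritins LSC30 and FER3 on the higher side, and AXR1, HAT5, a pair of SOC1 copies and 4 TGG1 copies on the lower side.

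**Figure D4:**
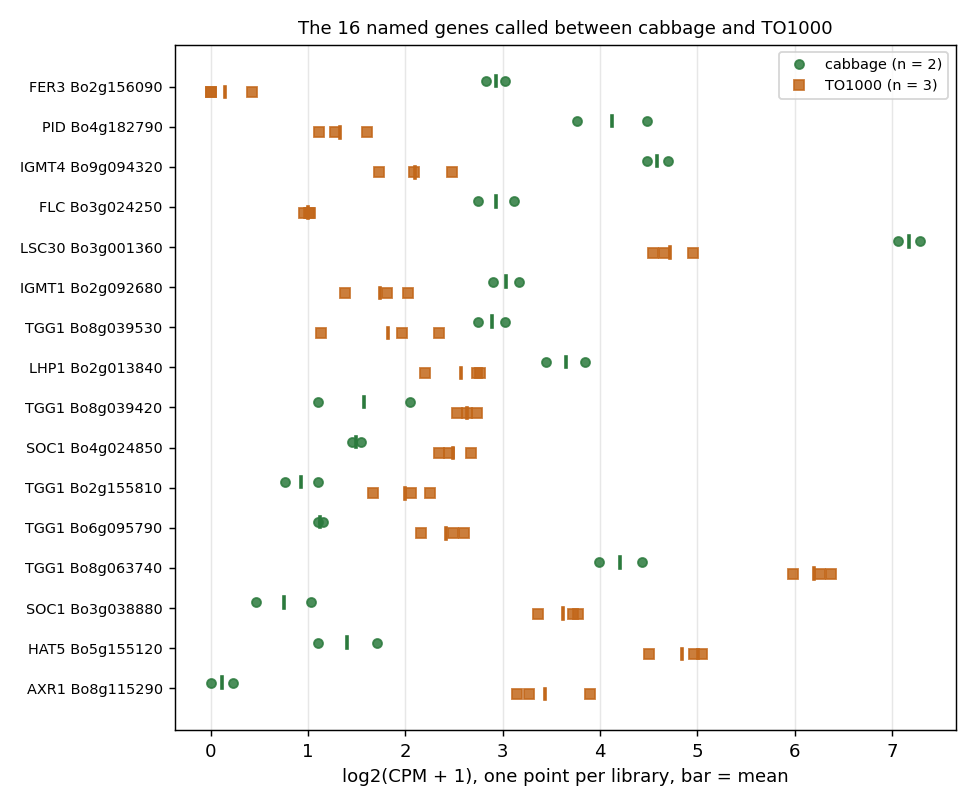
Level of the 16 called named genes in each library, as log2(CPM + 1) on the x axis, with cabbage as circles (n = 2), TO1000 as squares (n = 3) and a bar at each group's mean. The genes run from FER3 at the top, with a count ratio of 65.0 in favour of cabbage, to AXR1 at the bottom, with 83.3 in favour of TO1000. They were chosen by their call, so nothing is read from the gap between the cabbage and TO1000 points.

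Among the repressors of flowering 2 of 6 tested genes were higher in cabbage and 0 lower (median log2 fold change -0.16), and among the promoters of flowering 2 of 4 were lower and 0 higher (median -0.98). Over all tested genes 11.0% were higher and 16.8% lower. Members that were not called had values of either sign in both groups. At an unadjusted p under 0.05 in edgeR 1 repressor was lower and 1 promoter higher, and DESeq2 called 2 repressors higher, 1 promoter lower and none the other way. The FLC copy Bo3g024250 had 5.72 and 7.66 CPM in cabbage and 1.03, 1.02 and 0.945 CPM in TO1000, so every cabbage library was well above every TO1000 library. Cabbage minus TO1000 gave 2.75 on the log2 scale (standard error 0.41, edgeR quasi-likelihood test, Benjamini-Hochberg adjusted p = 1.69e-04). The other listed FLC copy, Bo9g173370, went the other way in its values, at 2.67 and 2.26 CPM in cabbage and 3.42, 4.06 and 3.15 CPM in TO1000. It did not pass the test (log2 fold change -0.55, edgeR quasi-likelihood test, Benjamini-Hochberg adjusted p = 0.297). Summed over the 2 listed copies FLC stood at 8.39 and 9.93 CPM in cabbage and at 4.10 to 5.08 CPM in TO1000, a ratio of means of 2.02. The study cites further FLC copies in this species, so the sum is not the whole of FLC.

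LHP1 (Bo2g013840), a chromatin protein that binds the Polycomb mark and helps to keep flowering genes silent, was higher in cabbage. It had 13.4 and 9.93 CPM in cabbage and 3.59, 5.80 and 5.67 CPM in TO1000. The log2 change of 1.17 (standard error 0.30, edgeR quasi-likelihood test, Benjamini-Hochberg adjusted p = 0.00714) lost its call without cabbage replicate 1 (0.99, adjusted p = 0.0523) and without TO1000 replicate 1 (0.97). The FLC relatives MAF1 and MAF3 did not pass the test, with log2 fold changes of -0.58 and 0.22. AGL69 and AGL68, also of the FLC clade, had too few counts to be tested. AGL68 (Bo01054s030) had 2 and 3 counts in cabbage and 0 in TO1000. ELF3 (Bo4g159930), a clock protein that delays flowering in short days, had 3.43 and 1.22 CPM in cabbage and 5.47, 4.21 and 3.94 CPM in TO1000. It missed the threshold (log2 fold change -1.15, edgeR quasi-likelihood test, Benjamini-Hochberg adjusted p = 0.0663) and rested on 1 library, at -1.86 without cabbage replicate 1 (adjusted p = 0.0230) and -0.38 without cabbage replicate 2 (adjusted p = 0.612).

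Both listed copies of SOC1, the MADS box integrator that promotes flowering, were lower in cabbage. Bo3g038880 had 1 and 6 counts in cabbage (0.381 and 1.04 CPM) against 74, 84 and 59 counts in TO1000 (12.7, 12.2 and 9.29 CPM). The groups lay far apart, a log2 change of -3.75 (standard error 0.43, edgeR quasi-likelihood test, Benjamini-Hochberg adjusted p = 2.15e-05). Without cabbage replicate 2 it was -4.80. Bo4g024850 had 1.91 and 1.74 CPM in cabbage and 4.45, 5.37 and 4.10 CPM in TO1000, a smaller change that did not overlap either. The change came to -1.36 log2 units (standard error 0.41, edgeR quasi-likelihood test, Benjamini-Hochberg adjusted p = 0.0181). That call was lost with DESeq2 (adjusted p = 0.0747) and without cabbage replicate 2 (0.137) or TO1000 replicate 2 (0.0578). Together the 2 listed SOC1 copies stood at 2.29 and 2.79 CPM in cabbage and at 13.4 to 17.6 CPM in TO1000, 6.31 times as much by the ratio of means.

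The other promoters differed less. SPL3 (Bo4g042390), a target of the age-dependent microRNA miR156 that promotes the move to flowering, had 14.5 and 13.8 CPM in cabbage and 19.5, 22.0 and 22.4 CPM in TO1000. It passed the FDR within 2-fold (log2 fold change -0.60, standard error 0.20, edgeR quasi-likelihood test, Benjamini-Hochberg adjusted p = 0.0257). SPL3 did not pass with DESeq2 (adjusted p = 0.107) or without TO1000 replicate 2 (0.0769) or 3 (0.0903). AGL12 (Bo6g094120), a MADS box gene best known from roots, had 7.25 and 4.88 CPM in cabbage against 3.25, 3.48 and 1.73 CPM in TO1000. It just missed the FDR (log2 fold change 1.04, edgeR quasi-likelihood test, Benjamini-Hochberg adjusted p = 0.0501) and passed it in 4 of the alternative settings. AGL19 was not tested, nor was AP1. Of the 3 tested genes of the last flowering group, BLH3, COL1 and BBX13, 0 were called by edgeR or DESeq2, beside 27.8% of all tested genes called by edgeR. Of the 3, 0 had an unadjusted p under 0.05 in edgeR, with log2 fold changes between -0.29 and 0.27.

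Of 5 listed glucosinolate genes 3 were tested and 2, both of indole glucosinolate synthesis, were called higher in cabbage (median log2 fold change 1.57), beside 11.0% of all tested genes. IGMT enzymes add a methyl group to hydroxylated indole glucosinolates. IGMT4 (Bo9g094320) had 21.4 and 24.9 CPM in cabbage and 3.25, 2.32 and 4.57 CPM in TO1000. In the fit this was a log2 difference of 2.79 (standard error 0.27, edgeR quasi-likelihood test, Benjamini-Hochberg adjusted p = 6.23e-06). The IGMT1 copy Bo2g092680 had 8.01 and 6.44 CPM in cabbage and 3.08, 1.60 and 2.52 CPM in TO1000, a log2 change of 1.57 (standard error 0.37, edgeR quasi-likelihood test, Benjamini-Hochberg adjusted p = 0.00470). The second IGMT1 copy, Bo2g092580, was barely counted in either morphotype, at 0.315 to 1.02 CPM, and was not tested. AOP3 (Bo3g052110), which modifies the side chain of aliphatic glucosinolates, had 2.67 and 2.79 CPM in cabbage and 2.05, 1.02 and 2.21 CPM in TO1000. AOP3 did not pass the test (log2 fold change 0.65, edgeR quasi-likelihood test, Benjamini-Hochberg adjusted p = 0.315). MYB29, a regulator of the aliphatic branch, had too few counts.

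The myrosinase TGG1 copies changed unequally. Of 9 listed copies, all tested, 4 were called lower and 1 higher in cabbage, and 2 more passed the FDR lower within 2-fold in edgeR. The median log2 fold change of the 9 was -0.68. Beside this, 16.8% of all tested genes were called lower and 11.0% higher. The study listed 4 of the 5 called copies for changes among all morphotypes. The largest change was in Bo8g063740, with 14.9 and 20.5 CPM in cabbage and 62.1, 81.7 and 75.8 CPM in TO1000. The fitted log2 fold change was -2.01 (standard error 0.21, edgeR quasi-likelihood test, Benjamini-Hochberg adjusted p = 8.55e-06), and it was the 1 TGG1 copy that kept its call in every alternative setting. Bo6g095790, the last of a run of 5 neighbouring genes lower in cabbage, had 1.14 and 1.22 CPM against 4.62, 5.08 and 3.47 CPM. Its log2 fold change of -1.86 (edgeR quasi-likelihood test, Benjamini-Hochberg adjusted p = 0.00636) lost its call without cabbage replicate 2 (adjusted p = 0.0689). The 5 genes of that run together had 59 counts in cabbage and 749 in TO1000.

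The remaining called copies rested on few counts. Bo2g155810 had 1.14 and 0.697 CPM in cabbage and 3.76, 2.18 and 3.15 CPM in TO1000 (log2 fold change -1.80, edgeR quasi-likelihood test, Benjamini-Hochberg adjusted p = 0.0229). Bo8g039420 had 1.14 and 3.13 CPM in cabbage and 5.65, 4.79 and 5.20 CPM in TO1000 (log2 fold change -1.11, edgeR quasi-likelihood test, Benjamini-Hochberg adjusted p = 0.0456). Bo8g039530, the copy that was higher in cabbage, had 5.72 and 7.14 CPM there and 1.20, 2.90 and 4.10 CPM in TO1000 (log2 fold change 1.24, edgeR quasi-likelihood test, Benjamini-Hochberg adjusted p = 0.0329). DESeq2 called 2 of the 9 copies, both lower, and 0 higher. The call of Bo2g155810 was lost without cabbage replicate 2 (adjusted p = 0.232). Bo8g039420 lost its call without cabbage replicate 1, where its fold was -0.71 on the log2 scale, and without any one TO1000 library (adjusted p = 0.0681 to 0.0730), and stood at -2.15 without cabbage replicate 2. For Bo8g039530 the call was lost without cabbage replicate 1 (0.0621) or 2 (0.246) and without TO1000 replicate 1 (log2 fold change 0.91) or 2 (adjusted p = 0.0677).

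Other TGG1 copies moved less. Bo2g155840, the copy with the most counts, had 77.1 and 92.6 CPM in cabbage and 113, 121 and 117 CPM in TO1000, a change within 2-fold that passed the FDR (log2 fold change -0.45, edgeR quasi-likelihood test, Benjamini-Hochberg adjusted p = 0.0373). Bo00934s010, on an unplaced scaffold, also passed within 2-fold, at 7.25 and 8.88 CPM against 13.5, 14.1 and 12.0 CPM (log2 fold change -0.68, edgeR quasi-likelihood test, Benjamini-Hochberg adjusted p = 0.0345). Neither passed the FDR with DESeq2 (adjusted p = 0.0632 for Bo2g155840 and 0.129 for Bo00934s010) or without TO1000 replicate 2 or 3. Bo2g155820, with 36.2 and 50.2 CPM in cabbage and 57.1 to 60.5 CPM in TO1000, did not pass (log2 fold change -0.42). Bo2g155870 overlapped between the groups, at 33.6 and 36.0 CPM against 26.5 to 36.4 CPM. Summed over the 9 copies TGG1 stood at 178 and 220.5 CPM in cabbage and at 287, 328 and 309 CPM in TO1000, a ratio of means of 0.647. The copies are alike in sequence, and whether reads that fit several of them were counted is not given in the sources used here, so the split among copies is less certain than the sum. MBP2, a myrosinase-binding protein, had too few counts to be tested.

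**Figure D5:**
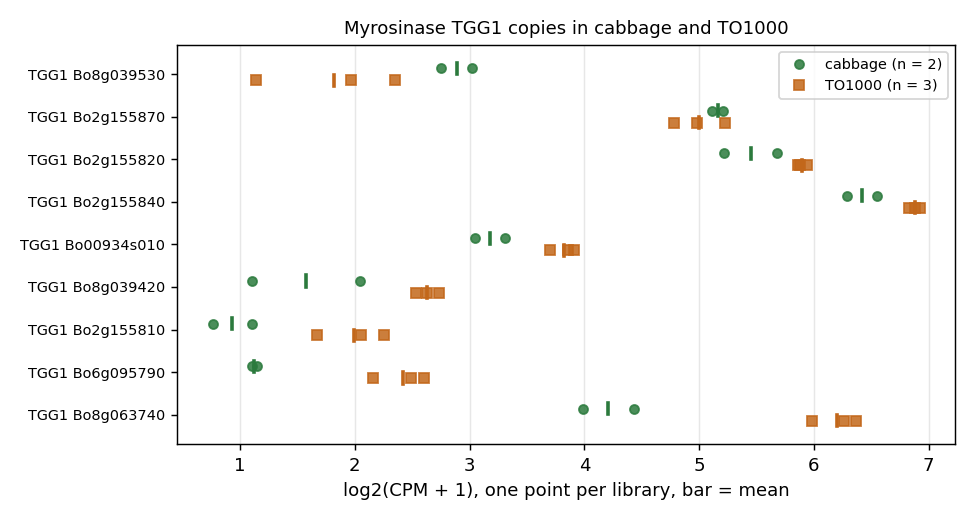
Level of each of the 9 TGG1 copies in each library, as log2(CPM + 1) on the x axis, with cabbage as circles (n = 2), TO1000 as squares (n = 3) and a bar at each group's mean, ordered by log2 fold change. Bo8g063740 at the bottom shows the widest gap (17.7 against 73.2 CPM by mean), Bo2g155870 overlaps and Bo8g039530 at the top is higher in cabbage.

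Ferritin, the plastid protein that stores iron, was higher in cabbage, and its main copy had the lowest adjusted p of the named genes. Among 5 tested genes of the mineral group 2 were called, both ferritins and both higher in cabbage (median log2 fold change 0.75). Over all tested genes 11.0% were called higher and 16.8% lower. The study listed both ferritins for changes among all morphotypes. LSC30 (Bo3g001360, ferritin-1) had 133 and 155 CPM in cabbage and 24.3, 30.0 and 22.4 CPM in TO1000. Cabbage minus TO1000 gave 2.49 on the log2 scale (standard error 0.17, edgeR quasi-likelihood test, Benjamini-Hochberg adjusted p = 2.94e-07), between 2.39 and 2.62 over all alternative settings. FER3 (Bo2g156090) had 16 and 41 counts in cabbage (6.10 and 7.14 CPM) and 2, 0 and 0 counts in TO1000. The ratio of FER3 was 65.0 (95% counting interval 17.2 to 550.0). The sum of the 2 listed ferritins was 139 and 162 CPM in cabbage and 22.4 to 30.0 CPM in TO1000, a ratio of means of 5.87. The summed level of 3 green leaf genes also stood higher in cabbage, as given above, and its part in the ferritin change was not tested. That sum rests mainly on FD1, while CPN60A did not pass the test and CPN60B was not tested and overlapped. FD1 (Bo8g059760), a ferredoxin that carries electrons from photosystem I, had 39.7 and 35.2 CPM in cabbage and 17.3, 22.9 and 19.2 CPM in TO1000. FD1 passed the FDR within 2-fold (log2 fold change 0.91, standard error 0.18, edgeR quasi-likelihood test, Benjamini-Hochberg adjusted p = 0.00172).

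The calcium-binding genes did not reach the fold threshold. CML26 (Bo6g117890), a calmodulin-like protein, had 24.0 and 20.2 CPM in cabbage and 12.7 to 13.4 CPM in TO1000 (log2 fold change 0.75, edgeR quasi-likelihood test, Benjamini-Hochberg adjusted p = 0.00806). CP1 and the CML42 copy Bo01178s020 did not pass the test, with log2 fold changes of 0.59 and 0.35. bHLH100, an iron deficiency regulator, was not tested, with at most 2 counts in any library. Among the vitamin genes 0 of 4 tested were called by edgeR or DESeq2, beside 27.8% of all tested genes called by edgeR. Of the 4, 1 had an unadjusted p under 0.05 in edgeR. The L-ascorbate oxidase copy Bo9g150050 had 48.8 and 58.0 CPM in cabbage and 23.8, 32.9 and 38.9 CPM in TO1000, and passed the FDR within 2-fold (log2 fold change 0.75, edgeR quasi-likelihood test, Benjamini-Hochberg adjusted p = 0.00956). THIC (Bo4g061330), which makes the pyrimidine part of thiamine, was among the steadiest, at 261 and 284 CPM in cabbage and 259 to 262 CPM in TO1000.

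Auxin genes listed for branching held a change in each direction. Of 10 genes in the branching group 5 were tested, and 1 was called higher and 1 lower (median log2 fold change 0.15). Among all tested genes 11.0% were called higher and 16.8% lower. PID (Bo4g182790), a kinase that directs auxin efflux carriers and so organ outgrowth, had 12.6 and 21.4 CPM in cabbage and 2.05, 1.16 and 1.42 CPM in TO1000. The change came to 3.50 log2 units (standard error 0.34, edgeR quasi-likelihood test, Benjamini-Hochberg adjusted p = 6.01e-06). The AXR1 copy Bo8g115290, for a subunit of the enzyme that activates the RUB modifier in auxin signalling, was nearly absent from cabbage. It had 0 and 1 counts in cabbage and 81, 54 and 55 counts in TO1000 (13.9, 7.83 and 8.66 CPM), a ratio of 83.3 (95% counting interval 14.8 to 3306). Thinned to equal depth, it was the 1 named gene among the 227 found in TO1000 only. The other listed AXR1 copies had at most 3 counts in any library each. The sum of the listed AXR1 copies was 0 and 0.348 CPM in cabbage and 8.27 to 13.9 CPM in TO1000. None of MAX1, DWARF27 and ABP1, the other tested genes of the group, was called, with log2 fold changes from -0.56 to 0.32. MAX1 and DWARF27 act in strigolactone synthesis. TCP18, which holds axillary buds dormant, had 0 counts in all 5 libraries.

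Of 12 genes grouped here under leaf development, all tested, HAT5 alone was called, beside 27.8% of all tested genes (median log2 fold change of the 12, -0.32). PID, described above with the auxin genes, is listed by the study for leaf development as well, and most of the others were listed for a change in kale alone. HAT5 (Bo5g155120), a homeodomain leucine zipper factor linked to leaf margins, had 3 and 13 counts in cabbage (1.14 and 2.26 CPM) and 127, 209 and 204 counts in TO1000 (21.7, 30.3 and 32.1 CPM). In the fit this was a log2 difference of -3.88 (standard error 0.33, edgeR quasi-likelihood test, Benjamini-Hochberg adjusted p = 1.82e-06). Without cabbage replicate 2 it was -4.58. ANT (Bo3g153310), which keeps young organs dividing, had 23.3 and 19.5 CPM in cabbage and 39.7, 26.7 and 28.2 CPM in TO1000. It passed the FDR within 2-fold (log2 fold change -0.57, edgeR quasi-likelihood test, Benjamini-Hochberg adjusted p = 0.0471). ANT did not pass with DESeq2 (adjusted p = 0.111) or without TO1000 replicate 1 (0.103), and passed without TO1000 replicate 2 or 3. The other 10, among them the growth regulators GRF3 and GRF4, the polarity gene YAB1 and the lateral organ boundary gene ASL6, had log2 fold changes between -0.70 and 0.32 and did not pass the test.

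Of 13 genes listed for the epidermis and its trichomes 5 were tested and 0 were called by edgeR or DESeq2. Of all tested genes edgeR called 27.8%, and with 5 genes nothing is read from the pair. At an unadjusted p under 0.05 in edgeR 2 of the 5, MYB106 and MYB96, were lower in cabbage. MYB96 (Bo2g082270), which activates wax synthesis, had 51.5 and 54.3 CPM in cabbage and 65.1 to 70.0 CPM in TO1000 (log2 fold change -0.33, edgeR quasi-likelihood test, Benjamini-Hochberg adjusted p = 0.0973). The 8 genes not tested had at most 39 counts over the 5 libraries and did not reach the count filter. Among them XIK (Bo5g027850) had 1.14 and 0.697 CPM in cabbage and 1.88, 1.60 and 1.58 CPM in TO1000. The defence gene ACX5, an acyl-CoA oxidase of jasmonate synthesis, and the chaperonin subunit CPN60A, which helps to assemble Rubisco, were not called, at log2 fold changes of -0.26 and 0.34.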

How the data were processed

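RNA was extracted from 5 pooled shoot tip samples, 2 of cabbage and 3 of TO1000, copied into cDNA from polyadenylated RNA without DNase treatment and amplified by PCR. Cutadapt 2.4 removed adapters from the single-end reads, and STAR aligned them in 2 passes to the genome of TO1000. The authors deposited the STAR read count of each gene, with no normalization. The strand setting is not given in the sources used here, so antisense partners may share counts. The replicates of a morphotype are stated to share a lane. By the study's methods they took up only part of a lane, with a different adapter for each library. Whether cabbage and TO1000 were on the same lane is not stated outright. If they were not, an effect of the lane cannot be told apart from that of the morphotype in any called gene.

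Counts as deposited were fitted in R 4.3.3 with edgeR 4.0.16 (filterByExpr with minimum count 10 and minimum total 15, TMM factors, quasi-likelihood test, morphotype as the only term, two-sided), and p values were adjusted by the Benjamini-Hochberg method over all 26015 tested genes. The biological coefficient of variation was 0.170. The standard error is the absolute log2 fold change over the root of F. The most alike libraries, TO1000 replicates 2 and 3, still differed by more than sampling noise (chi-square per gene 5.74). The procedure was also run on simulated counts with the same dispersion for all genes and few changed genes. Those settings differ from these data, so the run does not measure the error rate of the calls here.

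Alternatives tried were another tool (DESeq2 1.42.0), other factors (RLE, upper-quartile), other filters (none, or 10 counts on average), all 8 libraries in 1 fit, glmTreat, thinning, a replicate block, FDR alone and leaving out each library. For the distances they were Spearman correlation, thinning and the genes of highest variance, and for genes of one morphotype only, other count minimums. The shares by feature class and neighbour were followed through alternatives chosen after seeing the data.

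Values in every library are given for called named genes and the listed copies of their families. Of genes with no name, those shown are the most abundant called gene and the most counted gene of one morphotype only, in each direction. Other named genes are given by range or where they lay near a threshold. None of the identifiers matched the available RefSeq table (0 of 60586), so names are those of the study. The comparison, the genes and the lists were chosen with earlier results of these data known.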

Additional observations from a re-analysis of the deposited data

How the results depend on the processing

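The direction of every followed fold change (28 named genes and 4 others) was the same under all alternatives run. Of the 16 named genes called, 9 kept the call throughout and 10 under all but glmTreat, whose null is a change of up to 2-fold. The genes called numbered 3612 with glmTreat and 11227 by FDR alone, against 7237, and the named genes called numbered 9 with glmTreat. Without 1 library the genes called ranged from 4913 (without cabbage replicate 2, the deeper of the pair, 4295 of them shared with the 7237) to 7322, and the named genes called from 13 to 15, with a lone cabbage library assumed to vary like TO1000. DESeq2 called 6363 genes and 12 named genes. Among called genes the share lower in cabbage was 56.3% to 63.1% over the alternatives with a fold threshold and 54.3% by FDR alone. With no count filter the median log2 fold change of all genes moved to -0.58.

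Genes found in cabbage only and in TO1000 only numbered 145 and 443 with at least 5 counts, 32 and 91 with at least 20, 175 and 430 with up to 2 counts in the other morphotype, and 42 and 364 on counts as deposited. Without 1 library they ranged from 78 to 107 and from 250 to 368, the last without cabbage replicate 1. TO1000 only was the larger number each time. The distance ratio was 2.38 to 2.78 without 1 TO1000 library (exact permutation p = 0.333, the smallest of 6 divisions).

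A replicate block by the numbers in the titles gave 6777 called genes and 14 named genes. The labels do not say that a number links samples. The study planted in randomized blocks, and whether a replicate number stands for a block is not stated. Over the tested genes, the difference between replicates 1 and 2 in cabbage correlated at -0.06 with that in TO1000. This value leaves out TO1000 replicate 3 and cannot decide whether a number links samples. The 24 named genes that were not tested held at most 39 counts over the 5 libraries. With no count filter 82 of the 83 named genes were tested and 19 were called.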
